A study of Homo sapiens with 6 samples.

Results

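Matrix proteoglycans and matricellular proteins are secreted molecules that surround cells without, for the most part, forming the load-bearing fibres of a tissue. Of the 58735 genes in the deposited expression table, 10 were chosen by gene symbol for this account: the small leucine-rich proteoglycans DCN (decorin), LUM (lumican) and BGN (biglycan), the matricellular proteins SPARC, THBS1 (thrombospondin 1), POSTN (periostin) and TNC (tenascin C), the fibre-forming glycoproteins FN1 (fibronectin) and FBN1 (fibrillin 1), and the large aggregating proteoglycan VCAN (versican). All 10 symbols were found once each. They were measured by RNA-seq in HGC-27, an established human gastric cancer (GC) cell line of undifferentiated, mesenchymal-like type, in which the cholesterol and ketone metabolism enzyme ACAT2 (acetyl-CoA acetyltransferase 2) was knocked down. The 3 shNC libraries came from cells given the control plasmid pSIH-H1-Puro-shNC and labelled WT. The 3 shACAT2 libraries came from cells given pSIH-H1-Puro-shACAT2 and labelled ACAT2 knockdown. The study's methods name empty vectors as its negative controls and list no control hairpin sequence. Whether the shNC cells expressed a short hairpin RNA is therefore not known. Both groups shared the vector backbone, 24 h of exposure to it and 7 days of puromycin selection. The labels of the knockdown samples name 1 shACAT2 construct and do not say whether the 3 libraries of a group came from separate cultures, so the p-values below measure the spread between these libraries, which may be technical.

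In connective tissue, decorin, lumican and biglycan bind fibrillar collagens and set fibril diameter and spacing, and each carries glycosaminoglycan chains on a leucine-rich core. Matricellular proteins act mainly on cells: SPARC, periostin, thrombospondin 1 and tenascin C bind collagens, integrins or growth factors and are known from wound repair, bone and tumour stroma. Fibronectin is assembled into fibrils by integrins, fibrillin 1 builds the microfibrils that hold elastic fibres and latent TGF-beta, and versican forms hydrated aggregates with hyaluronan. In gastric tumours most of these proteins are attributed to fibroblasts of the stroma, while carcinoma lines with mesenchymal features can also make some of them.

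Values were FPKM, fragments scaled to gene length and to a size set for each library, as deposited. That size, recovered from the values, was 102.1% to 107.5% of the fragments on genes in shNC and 95.7% to 106.5% in shACAT2, and its definition is not given in the sources used here. Scaled to the fragments on genes instead, SPARC (0.93) and DCN (0.50) kept the calls described below and LUM (0.59, limma adjusted p = 0.0745) did not. ACAT2 itself was at 14.2, 11.7 and 12.7 FPKM in shNC-1 to shNC-3 and at 6.19, 5.46 and 6.05 FPKM in shACAT2-1 to shACAT2-3. All shACAT2 libraries lay below all shNC libraries, with a log2 fold change of -1.01 ± 0.10 (SE) and an adjusted p = 0.00594 by limma. Depth was even, at 14086416 to 16067486 fragments on genes per library. Library shACAT2-3 stood apart, since 7477 genes had a fragment there and in no other library, against 416 to 657 genes for each of the others. Genes silent elsewhere averaged 0.0518 FPKM in it, so low values in this library were read against that level. Libraries shNC-2 and shNC-3 were closer to each other than any other pair of a group, with a chi-square per gene of 1.73 against 12.1 to 46.0, yet they differed by more than sampling noise and were kept as separate samples.

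The labelled cell type was checked against marker genes. The mesenchymal marker VIM (vimentin) was at 246 to 292 FPKM in shNC and 341 to 461 FPKM in shACAT2 (limma adjusted p = 0.0634). ZEB1, also mesenchymal, averaged 4.83 FPKM in shNC and 5.35 FPKM in shACAT2 (limma adjusted p = 0.803), and FN1 is described below. The mesenchymal cadherin CDH2 was at 0 or near it, at no more than 0.0808 FPKM in any library. Epithelial markers were low: 5 of the 6 genes stayed under 1 FPKM in every library, and KRT18 was at 0 in every library but shACAT2-3. The remaining gene, CDH1 (E-cadherin), was at 0.222, 0.120 and 0.141 FPKM in shNC. In shACAT2, CDH1 was higher, at 0.608, 0.828 and 1.15 FPKM, and it was under the filter of the main test. The summed level of the 6 genes was 0.978 to 1.43 FPKM in shNC and 1.79 to 2.69 FPKM in shACAT2. Fibroblast markers, 6 genes that also mark cells making decorin, lumican and periostin, summed to 266 to 305 FPKM in shNC and 377 to 481 FPKM in shACAT2. Nearly all of that sum was collagen: COL1A1 averaged 61.0 and 121 FPKM, with a log2 fold change of 0.97 and an adjusted p = 0.0136 by limma, and COL3A1 averaged 213 and 297 FPKM, with an adjusted p = 0.0916. The receptor PDGFRA went the other way in level, at 2.46 and 1.56 FPKM (limma adjusted p = 0.0701), and DPT was at no more than 0.183 FPKM. Endothelial markers summed to at most 0.351 FPKM and immune markers to at most 0.0812 FPKM. The part of these differences in the results below was not tested, and in bulk libraries a change in the number of cells of a kind and a change in RNA per cell cannot be told apart.

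Promoter DNA is shown for 4 of the members. BGN, THBS1 and TNC were each at a higher FPKM in every shACAT2 library than in any shNC library, and the groups overlapped for POSTN. None of the 4 was called in the main test described below, in which TNC was not tested, and SPARC, which was called, is not shown. RefSeq promoters (GRCh38.p14) were matched for 8 of the 10 members, and DCN and LUM were not among them. The 250 bases before the RefSeq start were searched on both strands for CATTCC (the TEAD core), TGANTCA (AP-1), TATAAA (the TATA box), GGAGGA (a purine box) and CACGTG (the E-box). Each stretch below lies outside every annotated exon and is written 5′ to 3′ on the strand of its gene, with capitals for matches to any of these motifs on either strand.
BGN: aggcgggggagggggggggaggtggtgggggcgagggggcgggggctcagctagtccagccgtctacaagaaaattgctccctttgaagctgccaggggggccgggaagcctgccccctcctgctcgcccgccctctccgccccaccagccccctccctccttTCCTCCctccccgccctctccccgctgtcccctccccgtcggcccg
THBS1: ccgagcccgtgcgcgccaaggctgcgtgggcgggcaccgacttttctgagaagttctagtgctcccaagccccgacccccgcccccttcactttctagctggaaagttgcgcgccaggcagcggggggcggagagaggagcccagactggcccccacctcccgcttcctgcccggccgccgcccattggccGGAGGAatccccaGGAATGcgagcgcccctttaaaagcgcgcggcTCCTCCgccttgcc
TNC: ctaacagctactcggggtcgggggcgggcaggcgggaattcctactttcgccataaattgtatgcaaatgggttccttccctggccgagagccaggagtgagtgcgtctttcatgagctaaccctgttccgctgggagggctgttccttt
POSTN: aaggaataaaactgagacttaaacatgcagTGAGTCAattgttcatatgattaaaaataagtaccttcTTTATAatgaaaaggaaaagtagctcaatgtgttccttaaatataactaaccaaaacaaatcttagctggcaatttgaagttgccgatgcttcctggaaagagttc

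These stretches lie at chrX:153494730-153494938 (plus strand), chr15:39580829-39581078 (plus strand), chr9:115118258-115118407 (minus strand) and chr13:37598845-37599018 (minus strand). They differed in base composition: GC content of the 250 bases was 74.0% for BGN, 69.6% for THBS1, 54.8% for TNC and 36.4% for POSTN, beside a median of 58.0% over 35116 promoters. CATTCC was found in 3 of the 8 member promoters and in 11.9% of all promoters. These matches began 17 bases before the start in SPARC, 46 bases before it in THBS1 (seen above as GGAATG on the written strand) and 58 bases before it in FBN1. TGANTCA (6.57% of all promoters) and TATAAA (10.7%) were each found in POSTN alone of the members, the first as the TGAGTCA in capitals above. GGAGGA, present in 31.8% of all promoters, was found in 5 of the 8 (FN1, VCAN, SPARC, THBS1 and BGN), with 5 matches in SPARC. The 250 bases searched for SPARC and VCAN began within an annotated exon, and those for FN1 met one after 9 bases. Matches in SPARC, VCAN and FN1 may thus lie within exons. CACGTG, found in 6.34% of all promoters, was in 0 of the 8. A match of letters is a description of the sequence and not a binding site.

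The members covered a wide range of expression in HGC-27 cells. Mean FPKM over the 6 libraries placed BGN at the 98.6th percentile of the 13832 genes tested, POSTN at the 95.9th, SPARC at the 93.8th, LUM at the 92.7th, DCN at the 67.9th, THBS1 at the 44.9th and FN1 at the 23.7th. TNC and FBN1 averaged 0.579 and 0.592 FPKM and VCAN 0.00897 FPKM, under the expression filter of a mean of 1 FPKM in either group. FPKM here is per summed length of all annotated exons, so the percentiles and the order of levels across genes depend on that length. DCN was divided by 12847 bases and LUM by 3008. In shNC-1, DCN had more fragments than LUM (1606 against 1277) but a lower FPKM (8.17 against 27.7). In shNC the order was BGN, POSTN, LUM, SPARC, DCN, THBS1, FN1, TNC, FBN1 and VCAN. The ranges of LUM and SPARC overlapped, as did those of TNC and FBN1, and all other neighbours were apart. In shACAT2, SPARC stood second after BGN, but its range overlapped that of POSTN, which overlapped that of LUM. The summed level of the 10 genes was 259, 262 and 263 FPKM in shNC and 373, 354 and 348 FPKM in shACAT2, and BGN alone made up 42.1% to 51.8% of it.

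**Figure D1:**
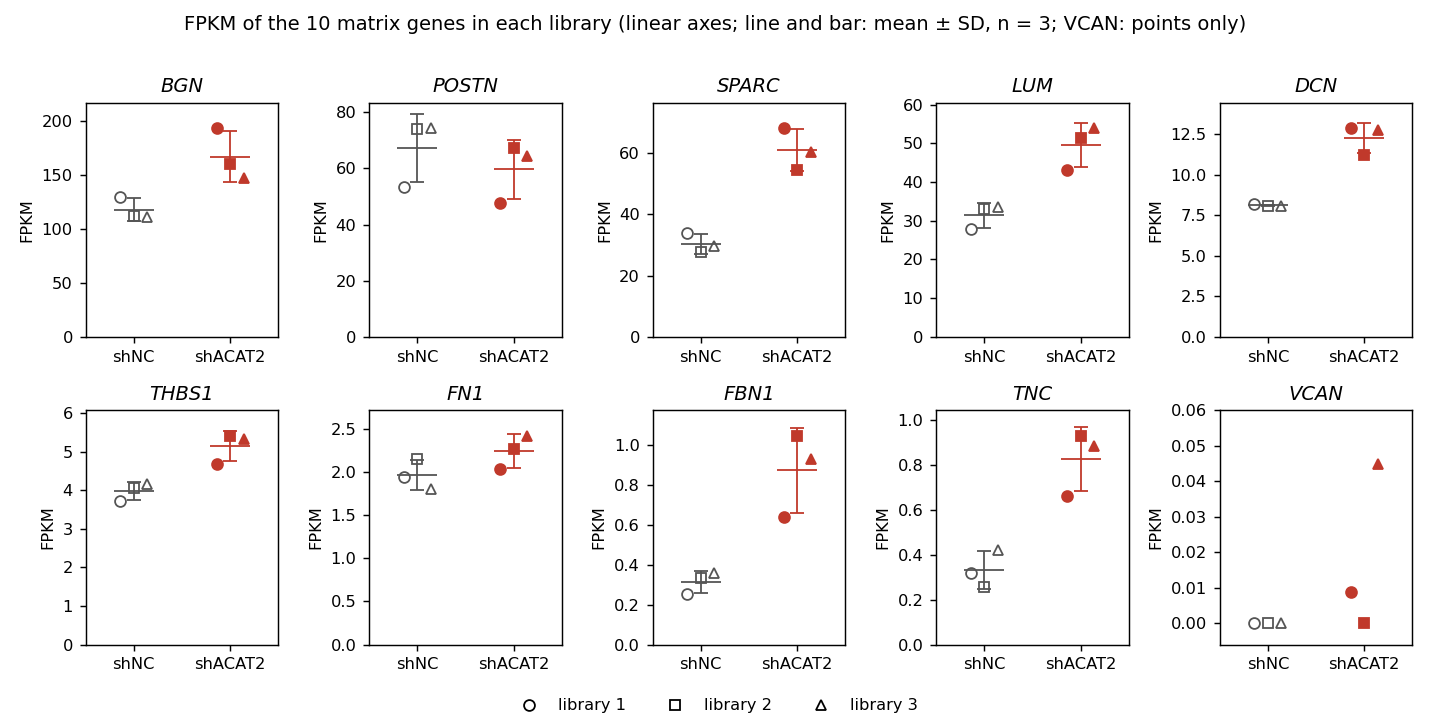
FPKM (linear y axes starting at 0, except VCAN) of each of the 10 genes in the 3 shNC and 3 shACAT2 libraries, with a marker for each replicate number, a line for the mean and bars for the SD (n = 3). The shACAT2 points lie above all shNC points for BGN, SPARC, LUM, DCN, THBS1, FBN1 and TNC, the groups overlap for POSTN and FN1, and VCAN, drawn as points alone, is at 0 in 4 libraries.

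Of the 7 members that passed the filter, 3 were upregulated in shACAT2 (DCN, LUM and SPARC) and 0 were downregulated at an adjusted p below 0.05 by limma on log2(FPKM + 1). Over all 13832 genes tested, 3.3% were called higher and 1.81% lower. At an unadjusted p below 0.05, 5 of the 7 were higher and 0 lower by limma, beside 12.8% and 10.7% of all genes. The counts were again 5 and 0 by limma-voom on fragments recovered from the FPKM, beside 11.2% and 14.2% of all genes. The same 7 members passed a filter on the mean over all 6 libraries, which does not look at the groups. All shACAT2 libraries lay above all shNC libraries for 5 of the 7 (these 3 with BGN and THBS1), a pattern found in 16.2% of all genes tested. For a single gene, 3 against 3 libraries cannot give a two-sided exact permutation p below 0.1. The median log2 fold change was 0.49 over the 7 members, 6 of them above 0, and 0.016 over all genes tested, of which 7234 lay above 0. The study states its threshold in different forms, a fold change above 1 in the methods and an absolute log2 fold change above 1 beside its volcano plot, each with an unadjusted p below 0.05. The log2 form was passed by 1.5% of genes tested and by 0 of the 7 members on log2(FPKM + 1), where SPARC came closest at 0.98. That 0 depended on the scale: with a pseudocount of 0.1, SPARC passed at 1.005, beside 3.47% of genes, and on fragments with limma-voom TNC and FBN1 passed, beside 4.61% of 16299 genes.

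Among the small leucine-rich proteoglycans, decorin and lumican were both upregulated. DCN, which binds collagen fibrils and TGF-beta, lies on chromosome 12 at 91140484 to 91183123, minus strand (GRCh38, as are all gene positions here). It was at 8.17, 8.08 and 8.08 FPKM in shNC and at 12.9, 11.2 and 12.7 FPKM in shACAT2. The shNC libraries were nearly identical, and the lowest shACAT2 library, shACAT2-2, was still well above them. Means were 8.11 ± 0.0521 and 12.3 ± 0.925 FPKM (SD, n = 3 each), a 1.52-fold difference in FPKM, counted from 1606 to 2515 fragments per library. The log2 fold change was 0.54 ± 0.09 (SE) with an adjusted p = 0.0246 by limma. The call for DCN was lost without shNC-1 (limma adjusted p = 0.0937), without shNC-2 (0.140), without shNC-3 (0.139) and without shACAT2-2 (0.0670). Without shACAT2-3, the library with the raised background, it was kept, at 0.52 with an adjusted p = 0.0481.

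LUM, which spaces collagen fibrils in cornea and skin, is the neighbour of DCN on the same strand of chromosome 12, at 91102629 to 91111831, with 28652 bases between the genes. It was at 27.7, 32.9 and 33.5 FPKM in shNC and at 43.1, 51.4 and 54.0 FPKM in shACAT2. Both groups spread more widely than for DCN, with the lowest value in the library numbered 1 of each, and the groups did not overlap. Means were 31.4 ± 3.17 and 49.5 ± 5.70 FPKM (SD, n = 3 each), a 1.58-fold difference in FPKM. The log2 fold change was 0.64 ± 0.13 (SE) with an adjusted p = 0.0423 by limma. This call was the least secure of the 3: it was lost without shNC-1 (limma adjusted p = 0.130), shNC-2 (0.155), shNC-3 (0.152), shACAT2-2 (0.140) or shACAT2-3 (0.0690), and limma-voom gave 0.60 with an adjusted p = 0.0515. The next small leucine-rich genes along the chromosome, KERA and EPYC, did not exceed 0.0302 and 0.0362 FPKM in any library.

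BGN, the member with the highest level, is an X-linked proteoglycan of bone and cartilage matrix (chromosome X, 153494939 to 153509554, plus strand). It was at 129.8, 112.2 and 110.9 FPKM in shNC and at 193.3, 160.0 and 147.0 FPKM in shACAT2. The library numbered 1 was the highest of each group, and the lowest shACAT2 library lay above the highest shNC library. Means were 118 ± 10.6 and 167 ± 23.9 FPKM (SD, n = 3 each), or 1.42-fold. The log2 fold change of 0.49 ± 0.14 (SE) did not pass the threshold, with an adjusted p = 0.0958 by limma. With the replicate number as a block in the model, it did, at an adjusted p = 0.0293 by limma, and limma-voom gave 0.45 with an adjusted p = 0.0326.

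SPARC had the greatest log2 fold change of the 7 members that passed the filter. It encodes osteonectin, a collagen- and calcium-binding glycoprotein, and lies on chromosome 5 at 151661096 to 151687165, minus strand. It was at 33.8, 27.5 and 29.6 FPKM in shNC and at 68.1, 54.5 and 60.2 FPKM in shACAT2. The groups were far apart, and libraries with the same number kept the same order in both. Means were 30.3 ± 3.17 and 60.9 ± 6.81 FPKM (SD, n = 3 each), a 2.01-fold difference in FPKM from 2157 to 4994 fragments per library. The log2 fold change was 0.98 ± 0.13 (SE) with an adjusted p = 0.0118 by limma. The call was lost without shNC-2 (limma adjusted p = 0.0801) or shNC-3 (0.0854) and kept without any other library, shACAT2-3 included (0.0241). An antisense gene, CLMAT3, shares 381 bases (7.89%) of the SPARC exons and was at no more than 0.212 FPKM.

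THBS1, an activator of latent TGF-beta and an inhibitor of angiogenesis, was at 3.74, 4.06 and 4.17 FPKM in shNC and at 4.70, 5.43 and 5.33 FPKM in shACAT2. It lies on chromosome 15 at 39581079 to 39599466, plus strand. The groups did not overlap, and the library numbered 1 was the lowest of each. Means were 3.99 ± 0.222 and 5.15 ± 0.398 FPKM (SD, n = 3 each), or 1.29-fold, from 524 to 826 fragments per library. The log2 fold change of 0.30 ± 0.09 (SE) missed the threshold (adjusted p = 0.111 by limma) and passed it once the replicate block was added (adjusted p = 0.0480 by limma). Genes on the opposite strand share 4.49% (AC037198.2, at 0 FPKM in every library) and 4.89% (FSIP1, at most 0.403 FPKM) of its exons.

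POSTN was the only member with a log2 fold change below 0 in the 7 tested. Periostin is a ligand of integrins made by periosteum and by activated fibroblasts, and its gene lies on chromosome 13 at 37562583 to 37598844, minus strand. It was at 53.2, 74.0 and 74.4 FPKM in shNC and at 47.7, 67.2 and 64.3 FPKM in shACAT2. The library numbered 1 was low in each group, and the groups overlapped. Means were 67.2 ± 12.1 and 59.7 ± 10.5 FPKM (SD, n = 3 each), with a log2 fold change of -0.17 ± 0.19 (SE) and an adjusted p = 0.647 by limma. Within libraries of the same number, the difference of shACAT2 minus shNC was -5.51, -6.85 and -10.1 FPKM, and the paired fit with the replicate block gave an adjusted p = 0.147 by limma. The fold change therefore differed from 0 by less than its spread in the unpaired fit, and it did not pass in the paired one.

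TNC, an integrin ligand of wounds and tumour stroma that is scarce in most adult tissue, was a low-level member. It was at 0.319, 0.256 and 0.421 FPKM in shNC and at 0.663, 0.930 and 0.885 FPKM in shACAT2, from 40 to 149 fragments per library (chromosome 9, 115019578 to 115118257, minus strand). Every shACAT2 library was above every shNC library, and means were 0.332 ± 0.0835 and 0.826 ± 0.143 FPKM (SD, n = 3 each), a 2.49-fold difference in FPKM. TNC was under the main filter. In a fit over 14394 genes, each with 10 or more fragments per library throughout, it was called higher, with a log2 fold change of 0.45 ± 0.08 (SE) on the log2(FPKM + 1) scale and an adjusted p = 0.0177 by limma. The pseudocount of 1 exceeds these levels, so that scale understates the change, and limma-voom on fragments gave 1.26 ± 0.26 (adjusted p = 0.0236). With no filter, over 41161 genes, the limma adjusted p was 0.298. DEC1 on the opposite strand shares 1.34% of the TNC exons and was at no more than 0.0174 FPKM outside shACAT2-3.

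Of the 2 fibre-forming glycoproteins, fibronectin did not pass the test and fibrillin 1 was higher at a low level. FN1 (chromosome 2, 215360440 to 215436172, minus strand) was at 1.94, 2.15 and 1.81 FPKM in shNC and at 2.04, 2.27 and 2.43 FPKM in shACAT2. The groups overlapped, with shACAT2-1 below shNC-2. Means were 1.97 ± 0.173 and 2.24 ± 0.196 FPKM (SD, n = 3 each), with a log2 fold change of 0.13 ± 0.10 (SE) and an adjusted p = 0.510 by limma. Depth was not scarce for this gene, with 514 to 652 fragments per library.

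FBN1 (chromosome 15, 48408306 to 48645849, minus strand) was at 0.252, 0.330 and 0.358 FPKM in shNC and at 0.636, 1.05 and 0.930 FPKM in shACAT2, from 62 to 279 fragments per library. The library numbered 1 was the lowest of each group, and the groups did not overlap. Means were 0.313 ± 0.0547 and 0.870 ± 0.211 FPKM (SD, n = 3 each), a 2.78-fold difference in FPKM. Like TNC it was under the main filter. With the fragment filter its log2 fold change was 0.50 ± 0.09 (SE) on the log2(FPKM + 1) scale with an adjusted p = 0.0178 by limma. On fragments, limma-voom gave 1.39 ± 0.27 with an adjusted p = 0.0192, and with no filter the limma adjusted p was 0.272.

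With 10 or more fragments required of each library, 9 members were tested and 5 were called higher (DCN, LUM, SPARC, TNC and FBN1), beside 4.21% of all 14394 genes. Groups did not overlap for 7 of the 9, beside 16.1% of those genes. The lone member outside this filter was VCAN. Versican (chromosome 5, 83471465 to 83582303, plus strand) was listed at 0 FPKM in the 3 shNC libraries and in shACAT2-2, at 0.00888 FPKM (2 fragments) in shACAT2-1 and at 0.0449 FPKM (10 fragments) in shACAT2-3. A count of 0 allows up to 3 fragments, or 0.0117 to 0.0132 FPKM in shNC, for counting error only. Versican in shACAT2-3 had 0.674 fragments per kilobase, below the 0.778 fragments per kilobase of genes silent in the other libraries. No fold change is given for VCAN.

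**Figure D2:**
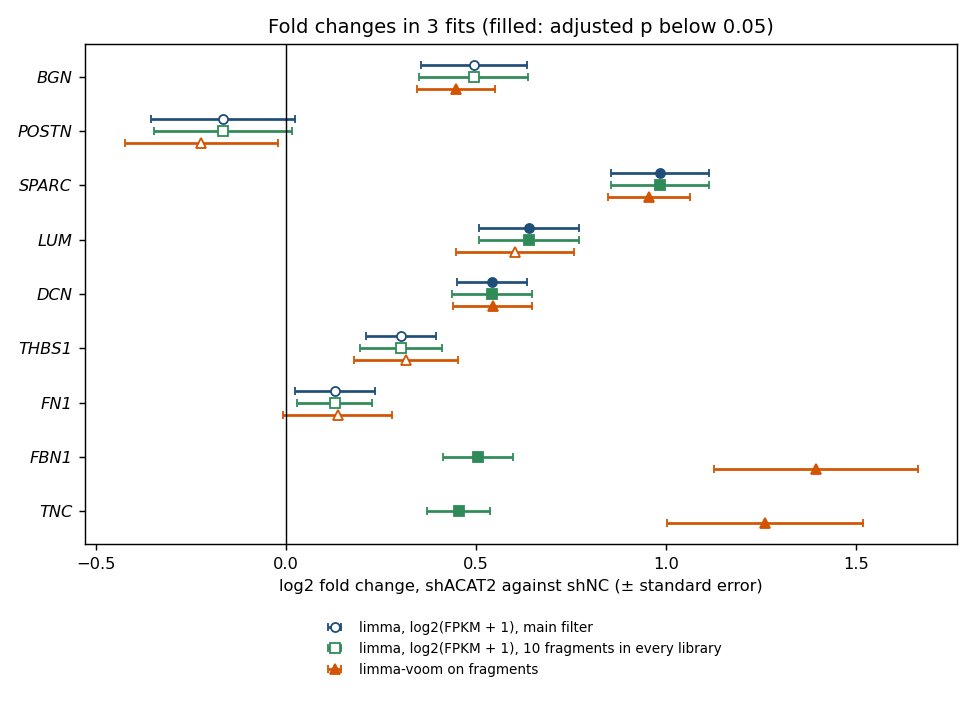
The log2 fold change of shACAT2 against shNC (x axis, bars ± SE) for the 9 members that had 10 or more fragments in each library, in 3 fits, with filled markers for an adjusted p below 0.05. The limma-voom points come from the fit over genes with 10 fragments in 3 libraries. SPARC and DCN are filled in all 3 fits, LUM in the fits on log2(FPKM + 1), BGN with limma-voom, and TNC and FBN1 lie at 0.45 and 0.50 on log2(FPKM + 1) and at 1.26 and 1.39 on fragments.

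Deviations from group means correlated positively between libraries of the same replicate number, so ratios were also taken within numbers. The labels do not state a pairing, so the pairs and the replicate block are an assumption. The SPARC ratio of shACAT2 to shNC was 2.02, 1.98 and 2.03 in the 3 pairs, and the LUM ratio was 1.55, 1.56 and 1.61. Ratios of DCN (1.58, 1.39 and 1.58), BGN (1.49, 1.43 and 1.33) and THBS1 (1.26, 1.34 and 1.28) were all above 1. The low-level members varied more, at 2.08, 3.63 and 2.10 for TNC and 2.52, 3.16 and 2.60 for FBN1. FN1 differed little in the first 2 pairs (1.05 and 1.05) and more in the third (1.34), and POSTN was below 1 in all 3 (0.897, 0.907 and 0.864). In the fit with the replicate block, 5 of the 7 members were called higher by limma (DCN, LUM, SPARC, BGN and THBS1), beside 7.67% of all genes. In both groups the library numbered 1 held the highest BGN, SPARC and DCN and the lowest LUM, POSTN, THBS1 and FBN1. FN1 and TNC did not share this pattern: the lowest libraries were shNC-3 and shACAT2-1 for FN1, and shNC-2 and shACAT2-1 for TNC.

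**Figure D3:**
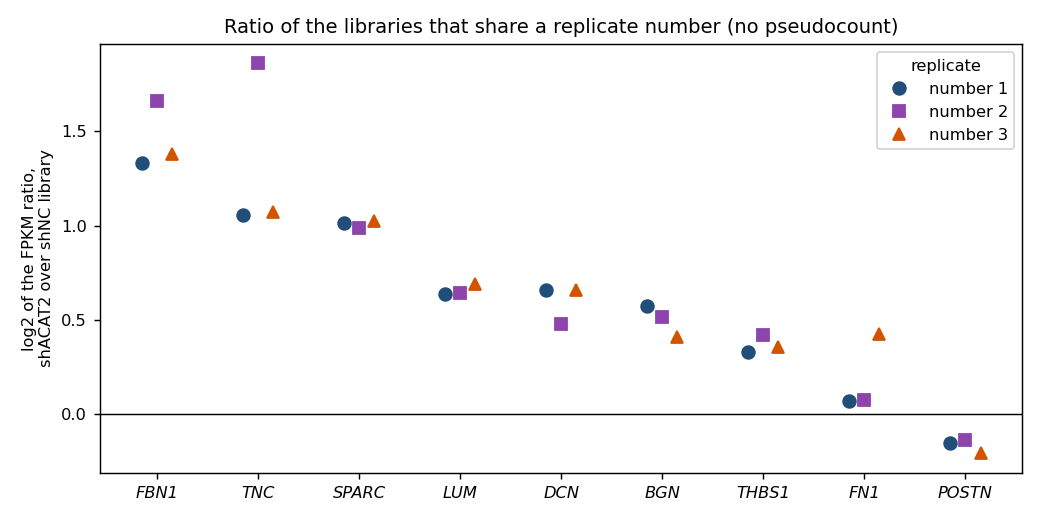
The log2 of the FPKM ratio (y axis, no pseudocount) of the shACAT2 library over the shNC library with the same replicate number, for 9 members and 3 pairs, without error bars since each point is 1 pair. All 3 points lie above 0 for every gene shown except POSTN, whose 3 ratios are 0.897, 0.907 and 0.864, and SPARC and LUM have the tightest points.

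The genes most like the 2 members with the smallest p were found by the Pearson correlation of log2(FPKM + 1) over the 6 libraries, which share the contrast and are a description only. SPARC was most like ZDHHC9 (r = 0.999), ANXA2 (r = 0.998) and SP8 (r = 0.998). ANXA2, the annexin A2 gene, was at 56.3 to 66.6 FPKM in shNC and 113 to 140 FPKM in shACAT2. DCN was most like HIST1H2BC (r = 0.9992), CCL2 (r = 0.9987) and UBE2D3 (r = 0.9985). CCL2, a monocyte chemokine, was at 3.80 to 4.08 FPKM in shNC and 11.5 to 15.7 FPKM in shACAT2. Among the tested members, SPARC had r = 0.984 with DCN, 0.940 with BGN, 0.824 with LUM, 0.801 with THBS1, 0.553 with FN1 and -0.559 with POSTN.

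The members belong to wider groups of matrix genes, and 160 genes in 8 lists were counted in the same limma fit. Of these, 88 passed the filter, 11 were called higher and 1 lower, against 3.3% higher and 1.81% lower over all genes. Members are among these counts, and the lists were written with results of these data known. With the replicate block, 27 of the 88 were called higher and 2 lower, against 7.67% and 4.81% over all genes. In the limma-voom fit on genes with 10 fragments in 3 libraries, 20 of 116 were higher and 5 lower. Over all 16299 genes of that fit, 636 were higher and 624 lower. Without the members, 8 of 81 were higher in the main fit, 22 of 81 with the block and 15 of 107 by limma-voom.

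Matricellular proteins had the most calls: of 22 genes, 9 were tested and 5 were called higher, 0 lower, with a median log2 fold change of 0.98. FSTL1, a secreted SPARC-family glycoprotein, averaged 20.1 ± 0.592 FPKM in shNC and 44.5 ± 1.02 FPKM in shACAT2 (SD, n = 3 each), with a log2 fold change of 1.11 and an adjusted p = 0.00347 by limma. The CCN-family genes NOV, CYR61 and CTGF were also called higher. NOV rose from 6.79 ± 0.597 to 14.3 ± 0.282 FPKM (0.98 on the log2 scale, limma adjusted p = 0.00516) and CYR61 from 13.1 ± 0.872 to 33.5 ± 7.31 FPKM (1.28, limma adjusted p = 0.0107). CTGF, named here after its values were seen because it was the fifth call, rose from 2.24 ± 0.824 to 7.55 ± 1.10 FPKM (1.42, limma adjusted p = 0.0133). The calls of FSTL1 and NOV were kept without each library in turn. CYR61 lost its call without shNC-1 (limma adjusted p = 0.0544), shNC-2 (0.0696), shNC-3 (0.0732) or shACAT2-2 (0.0569), and CTGF without shNC-3 (0.0798) or shACAT2-2 (0.0567). With the block, 7 of the 9 were called higher, THBS1 among them.

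Of 17 small leucine-rich proteoglycans, 6 were tested, and the 2 called higher were the members DCN and LUM. The median log2 fold change of the 6 was 0.39. The highest of the list by level were BGN and LUM. Among the 11 genes under the filter, 3 were under 0.1 FPKM in every library.

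Fibronectin, microfibril and elastic fibre genes had 2 calls, both higher, in 13 of 26 genes tested (median log2 fold change 0.13). FBLN5, which organises elastic fibres, rose from 3.08 ± 0.415 to 7.24 ± 0.347 FPKM (1.02 on the log2 scale, limma adjusted p = 0.00569). LOX, the enzyme that cross-links collagen and elastin, rose from 12.8 ± 1.09 to 27.3 ± 2.44 FPKM (1.04, limma adjusted p = 0.00698), and its call was lost without shNC-3 (limma adjusted p = 0.0512). The microfibril-associated MFAP4, the highest of the list in shACAT2, was at 41.4 ± 2.64 and 62.1 ± 9.17 FPKM with a limma adjusted p = 0.0587. EMILIN1 varied widely in shACAT2, at 81.3, 60.2 and 32.7 FPKM, beside 52.3 ± 3.87 FPKM in shNC (limma adjusted p = 0.929).

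Large and basement membrane proteoglycans were mostly low, with 2 of 11 genes tested, and the only call in them was lower. HSPG2 (perlecan, of basement membranes) fell from 7.44 ± 0.559 to 3.83 ± 0.500 FPKM, a log2 fold change of -0.81 ± 0.11 (SE) with an adjusted p = 0.0132 by limma. Its call was lost without shNC-1 (limma adjusted p = 0.0617), shNC-2 (0.0688), shNC-3 (0.0839) or shACAT2-2 (0.0624). AGRN (agrin) was at 41.5 ± 3.64 and 35.1 ± 6.89 FPKM, with a limma adjusted p = 0.393.

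Cell surface proteoglycans had 1 call, higher, in 10 of 13 genes tested. It was CD44, the hyaluronan receptor, which also is on the list of receptors of the members. CD44 rose from 3.42 ± 0.208 to 7.08 ± 0.138 FPKM (0.87 on the log2 scale, limma adjusted p = 0.00483) and kept its call without each library in turn. The syndecan SDC1 was at 27.5 ± 2.15 and 22.6 ± 5.401 FPKM (limma adjusted p = 0.371), and the glypican GPC4 at 19.7 ± 1.52 and 26.0 ± 1.62 FPKM (0.0854, and 0.0490 with the block).

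CD44 was also the only call among 9 of 18 receptors tested. The integrin subunits ITGB1 and ITGAV, partners for fibronectin and periostin, were at 43.3 ± 6.38 and 45.4 ± 7.55 FPKM (limma adjusted p = 0.862) and at 10.6 ± 1.97 and 14.2 ± 3.58 FPKM (0.350, and 0.0493 with the block). Toll-like receptors TLR2 and TLR4, which biglycan can engage, were at no more than 0.0128 and 0.0251 FPKM.

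Genes that build glycosaminoglycan chains had 1 call, higher, in 33 of 43 genes tested. CHPF, the chondroitin polymerising factor, rose from 13.2 ± 1.57 to 31.2 ± 8.78 FPKM (1.15 on the log2 scale, limma adjusted p = 0.0280). The CHPF call was lost without shNC-1 (limma adjusted p = 0.0847), shNC-2 (0.128), shNC-3 (0.136) or shACAT2-2 (0.104). EXT1, a heparan sulphate polymerase, was at 25.3 ± 1.36 and 20.2 ± 1.37 FPKM (limma adjusted p = 0.125, and 0.0435 with the block). With the block, 6 genes of the list were called higher and 1 lower, and with limma-voom on the same genes 1 higher and 2 lower.

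Hyaluronan genes had 0 calls by limma in 8 of 12 genes tested, with 2 higher and 1 lower at an unadjusted p below 0.05 and 1 higher and 1 lower by limma-voom. The link protein HAPLN1 was at 12.1 ± 0.935 and 10.3 ± 0.878 FPKM (limma adjusted p = 0.288) and the receptor HMMR at 8.53 ± 1.81 and 12.0 ± 2.24 FPKM (0.212, and 0.0254 with the block).

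**Figure D4:**
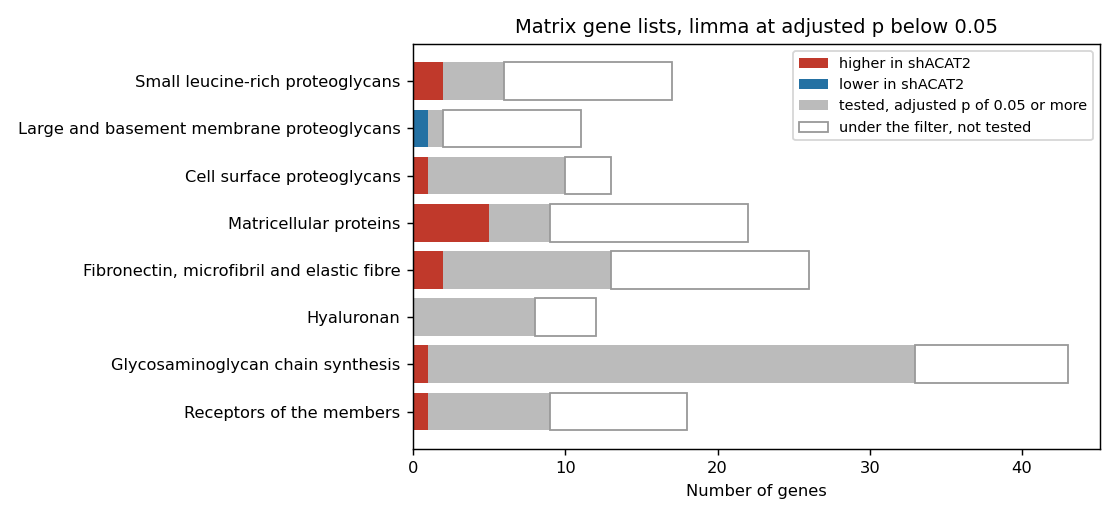
Number of genes (x axis) in each of 8 lists of matrix genes, split into those called higher or lower in shACAT2 by limma at an adjusted p below 0.05, those tested without a call and those under the filter. Matricellular proteins hold 5 of the 11 calls of higher level, and the only gene called lower, HSPG2, is in the list of large and basement membrane proteoglycans.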

How the data were processed

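RNA-seq was done on 3 shNC and 3 shACAT2 libraries of HGC-27. Per the labels, reads were processed with HISAT2 2.0.5, featureCounts 1.5.0-p3 and DESeq2 1.20.0 on hg38 (submitters' processing notes). The authors deposited FPKM per gene. The annotation and strand setting are not given in the sources used here, though the lengths of all 58735 genes match GENCODE 29 exon sums. FPKM times gene length and a per-library denominator recovered from the values gave whole fragments (within 0.05) for 100% of values. The main test was limma 3.58.1 (R 4.3.3) with trend on log2(FPKM + 1), genes averaging 1 FPKM or more in 1 of the groups, and Benjamini-Hochberg adjustment. Its code was run on fragments simulated at a common dispersion. That simulation lacked the unequal spread and the raised background of these libraries, so it does not measure error rates for them. The labels number the libraries and do not state a pairing. Deviations from group means correlated at 0.498, 0.153 and 0.195 between libraries of equal number, all above 0.1. Libraries of unequal number were not compared, so these values do not establish a pairing, and the replicate block assumes one. The members and lists were chosen with earlier results of these data known. Named genes were the 10 members, ACAT2, up to 4 called genes per list and direction, the 2 highest of each list, and the 3 most like the 2 members of smallest p. Other scalings, filters, pseudocounts, thresholds, limma-voom, the replicate block and omission of each library were tried. Intervals and floors cover counting error only.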

Additional observations from a re-analysis of the deposited data

Results flagged for a closer look

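Values of 3 members lay outside the main test, under its filter, and above every shNC library. TNC was at 0.663, 0.930 and 0.885 FPKM in shACAT2-1 to shACAT2-3, against at most 0.421 FPKM in shNC. FBN1 was at 0.636, 1.05 and 0.930 FPKM, against at most 0.358 FPKM in shNC. VCAN was at 0.0449 FPKM in shACAT2-3 and at 0 in every shNC library, and genes silent elsewhere averaged 0.0518 FPKM in that library. Groups of 3 libraries were not searched for single outlying samples.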

How the results depend on the processing

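No direction reversed for any member tested. Of the 7 members in the main test, 3 were called. When each library had to hold 10 fragments, 5 of 9 members tested were called, TNC and FBN1 among them, beside 4.21% of genes called higher. Limma-voom at 10 fragments in 3 libraries also called 5 of 9, TNC and FBN1 included. That fit was chosen after seeing the data, because TNC and FBN1 lay under the main filter. The count was 5 of 7 with the replicate block and 1 of 10 with no filter. It was 0 of 7 after averaging shNC-2 with shNC-3 or by the study's rule on log2(FPKM + 1). Added after seeing the data, that rule gave 1 (SPARC) at a pseudocount of 0.1 and 2 (TNC and FBN1) by limma-voom at 10 fragments. The count was 0 to 3 when 1 library was left out, the 0 being without shNC-2 or shNC-3, where 5 members were higher at an unadjusted p below 0.05. For genes of the lists, 12 were called, and 19, 25, 29, 5 and 6 in these settings in turn: 10 fragments per library, limma-voom at 10 fragments, the replicate block, averaging, and the study's rule, and 4 to 16 with 1 library left out.

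DCN lost its call with no filter (0.54, limma adjusted p = 0.0617) and with the shNC libraries averaged (0.54, 0.138), and ranged from 0.51 to 0.60 with 1 library left out. LUM lost it with upper-quartile scaling (0.61, 0.0582), library-size scaling (0.59, 0.0745), no filter (0.64, 0.114), limma-voom (0.60, 0.0515, or 0.60, 0.0501 at 10 fragments) and averaging (0.68, 0.155), and ranged from 0.56 to 0.73. SPARC lost it with averaging (0.94, 0.0809) and ranged from 0.90 to 1.06. BGN gained a call with limma-voom (0.45, 0.0326, or 0.45, 0.0343 at 10 fragments) and with the replicate block (0.49, 0.0293), and ranged from 0.38 to 0.58. THBS1 gained one with the replicate block (0.30, 0.0480) and ranged from 0.27 to 0.36. FN1 ranged from 0.087 to 0.17 and POSTN from -0.32 to -0.016. The cause of these changes was not tested. The block changed no call of the other 5 members tested. Over all genes, limma called 456 higher and 250 lower, 1061 and 666 with the block, 149 and 60 of 41161 with no filter, 63 and 20 with averaging, and limma-voom 587 and 580 (636 and 624 at 10 fragments). With 1 library left out, 63 to 862 were called. Depth limits VCAN, TNC and FBN1 most.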
